A study of Drosophila melanogaster with 3 samples.

Results

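The gene sr encodes Stripe, and its own locus was examined for binding of the Stripe protein in Drosophila melanogaster embryos. The stretch studied was sr (FBgn0003499, dm6 3R 18090803 to 18135583, forward strand, 44781 bp) with 20000 bp on either side, 84781 bp in all. Every peak summit there was taken from each library's list of peaks past the authors' threshold, from the longer ranked lists behind them and from the thresholded lists of all libraries together. Thresholded summits of the 3 libraries, each widened by 100 bp on both sides, merged into 19 sites, numbered S1 to S19 from the upstream end, out of 4000 merged regions on the chromosome arms. Peaks of all 3 libraries met at 11 of them, out of 1180 such shared regions.

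Chromatin immunoprecipitation followed by sequencing (ChIP-seq) had been run on whole embryos of 8 to 24 hours from transgenic flies of the strain sr-GFP, which express Stripe joined to eGFP. The source entry of the labels calls the strain an insertion targeting sr. All 3 libraries are biological replicates of this single group, and no embryos without the tag, of another genotype or of another stage were compared. The labels' description names an antibody against GFP, while their antibody entry reads sr, and they do not give the promoter, the copy number or the insertion site of the tagged gene. Whole embryos mix tendon cells with all other tissues, so a low signal can come from few cells or from weak binding, which cannot be told apart here.

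Stripe is a zinc finger transcription factor of the EGR family and directs the differentiation of tendon cells, the epidermal cells to which embryonic muscles attach. Signals at the segment borders set up sr expression in tendon precursors, and signalling through the EGF receptor later maintains it in the cells that muscles have reached. EGR-type zinc fingers recognise a GC-rich core, searched for here as GTGGGCG or GTGGGTG on both strands. In the Ensembl annotation sr has a first start at 3R 18090803, used by the transcripts sr-RA and sr-RD. A second start lies 31258 bp downstream at 18122061 and is used by sr-RB, sr-RC and sr-RE. The third intron of sr-RA, 30076 bp long, takes up most of the distance between them.

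Sequences are given here for sites of all 3 libraries, first with a core and then without one. They are read from the RefSeq genome of Release 6 (the dm6 coordinates) and given 5′ to 3′. The first 5 are sites with a core, which stands in capitals. CACCCAC and CGCCCAC are the core read from the other strand. S5, on the forward strand at chr3R:18094726-18094857, is the strongest site of the locus. S2, forward strand at chr3R:18089591-18089743, holds 3 cores. S4, forward strand at chr3R:18093538-18093654, holds 2 cores and has the lowest mean signal of these 5. S7, forward strand at chr3R:18103027-18103093, and S9, forward strand at chr3R:18106399-18106465, hold 1 core each.
S5: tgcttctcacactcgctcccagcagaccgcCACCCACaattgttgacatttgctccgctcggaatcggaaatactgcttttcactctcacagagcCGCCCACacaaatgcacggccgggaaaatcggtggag
S2: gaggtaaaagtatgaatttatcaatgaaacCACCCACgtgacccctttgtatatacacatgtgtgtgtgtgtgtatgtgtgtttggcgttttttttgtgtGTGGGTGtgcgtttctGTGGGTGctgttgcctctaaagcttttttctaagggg
S4: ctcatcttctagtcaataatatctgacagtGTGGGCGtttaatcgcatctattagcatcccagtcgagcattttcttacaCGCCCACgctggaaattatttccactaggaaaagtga
S7: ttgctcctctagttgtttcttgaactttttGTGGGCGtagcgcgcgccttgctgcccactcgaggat
S9: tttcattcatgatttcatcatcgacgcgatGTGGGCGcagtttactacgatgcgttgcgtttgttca

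The other sites of all 3 libraries held no exact core within 100 bp of their centres. For 4 of them the capitals mark the 9 bases nearest to the EGR consensus of that length, each with 2 mismatches. These are S3 (reverse strand, chr3R:18090498-18090558), S10 (reverse strand, chr3R:18107745-18107805), S14 (reverse strand, chr3R:18117700-18117760) and S15 (reverse strand, chr3R:18118884-18118944). In S3, S14 and S15 these bases include GTGGGC or GTGGGT, the first 6 letters of the core. S8 and S18 are not shown. At S18, stronger (mean signal 97.9) than S14 (56.1), the nearest 9 bases had 3 mismatches, and at S8 (45.0) they had 2. How often other windows hold 9 bases with 2 mismatches was not counted. The capitals therefore mark the nearest match only, and binding to it was not tested.
S3: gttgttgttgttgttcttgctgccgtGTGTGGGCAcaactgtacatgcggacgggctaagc
S10: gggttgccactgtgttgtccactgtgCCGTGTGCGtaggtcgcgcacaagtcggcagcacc
S14: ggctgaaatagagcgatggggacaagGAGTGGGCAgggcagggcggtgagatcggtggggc
S15: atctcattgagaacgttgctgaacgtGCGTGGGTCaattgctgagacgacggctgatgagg

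Across the genome, 2754, 1683 and 3013 peaks of replicates 1, 2 and 3 were past the threshold, out of 81528, 89928 and 88129 ranked ones. Sequencing depth is unknown, since the files give no read totals. Past the threshold were 16 of 60 ranked peaks at sr in replicate 1, 26.7%, where the share of the whole ranked list was 3.38%. The counts were 15 of 59 in replicate 2, 25.4% against 1.87%, and 15 of 89 in replicate 3, 16.9% against 3.42%. Although the stretch covers 0.0633% of the arms, it held 0.581%, 0.891% and 0.498% of the thresholded peaks of replicates 1, 2 and 3. Of the summed peak signal of each list it held 0.859%, 1.18% and 0.764%. Peak signals are values deposited by the authors with no stated normalization and serve here to describe peaks and to order them within a list.

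**Figure D1:**
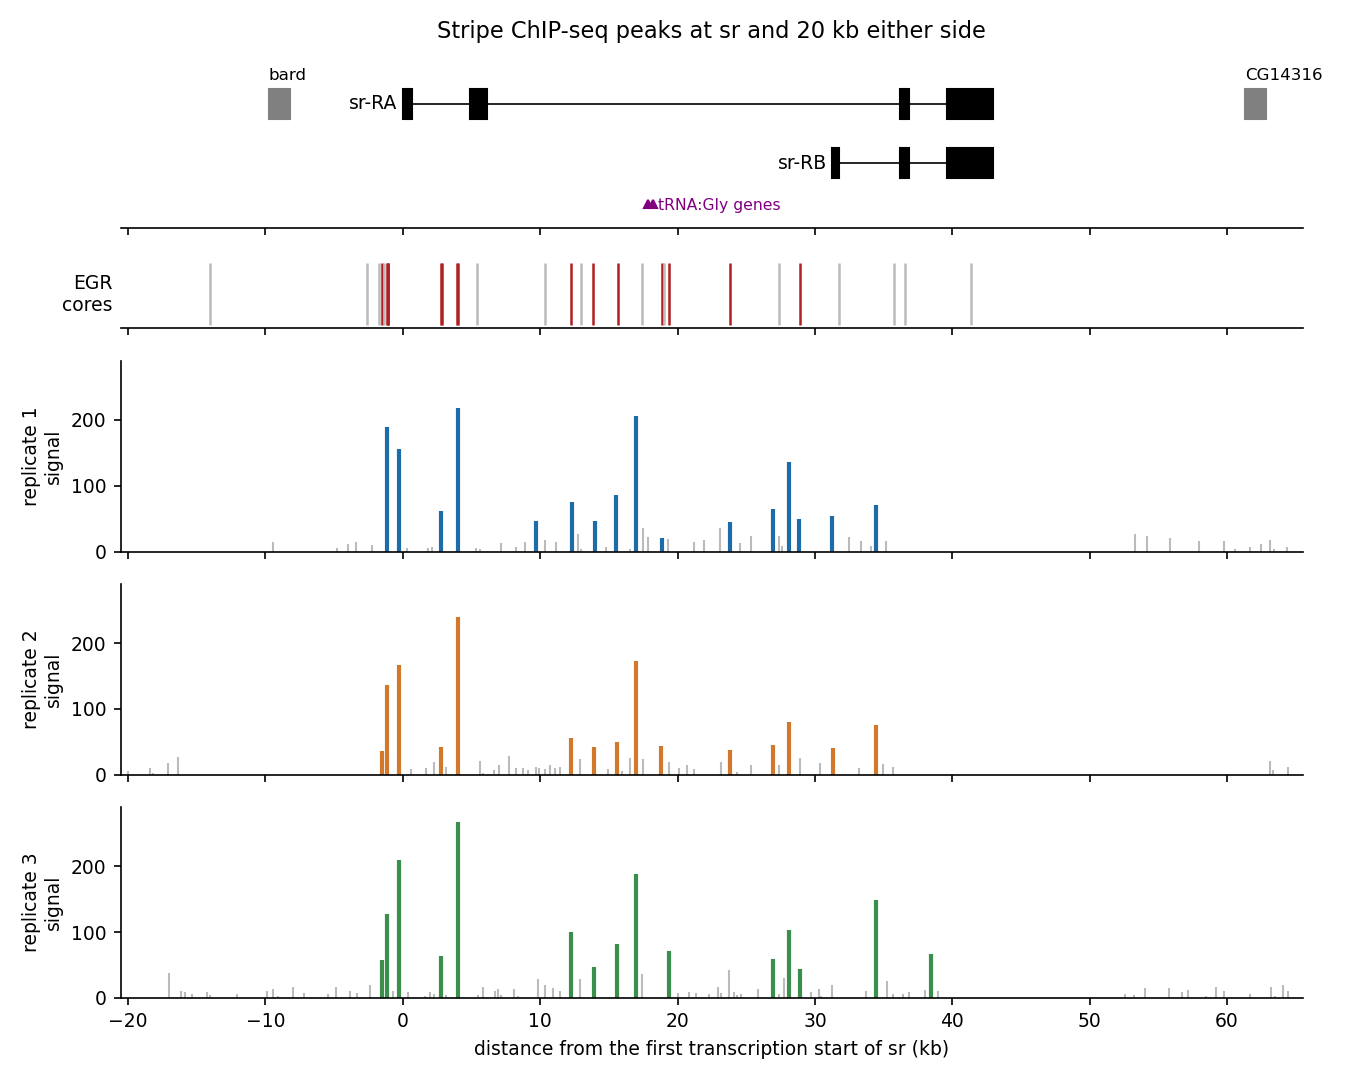
Peaks at sr and 20 kb either side, by distance from the first transcription start (kb). The top rows show exons of sr-RA and sr-RB, the neighbouring genes and every EGR core, in red where a thresholded summit of any library lies within 100 bp (15 of 29 cores); below, each library's peak signal is drawn as bars, coloured for thresholded peaks and grey for peaks that were only ranked. The 4 highest bars in each library stand at −1150, −266, +4037 and +16987 bp, except that in replicate 3 the bar at +34444 (148) exceeds that at −1150 (128).

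Upstream of the first start, Stripe peaks past the threshold stood at −1508 bp, −1150 bp and −266 bp, and the rest of the upstream 20 kb held none. S3, the site nearest to the start at −266 bp (3R 18090360 to 18090671), had signals of 156, 166 and 209 in replicates 1, 2 and 3, a mean of 177 ± 28.3 (SD, n = 3). Its summits in the 3 libraries lay within 6 bp of each other, the closest agreement among the 11 sites of all 3 libraries, and no core lay within 100 bp or 200 bp of its centre. S2, at −1150 bp (3R 18089549 to 18089760), had signals of 190, 136 and 128, a mean of 151 ± 33.8 (SD, n = 3), and summits within 7 bp. It held 3 cores, at −29, +41 and +57 bp from its centre, the most of any site at the locus. The third upstream site, S1 at −1508 bp, had 1 core, at +21 bp. It was past the threshold in replicate 2 (signal 36.3) and replicate 3 (58.2) and had no ranked peak in replicate 1.

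The first intron of sr-RA, 4275 bp long, held the strongest Stripe site of the locus and a weaker one. S5, at +4037 bp (3R 18094715 to 18094953), had signals of 219, 239 and 267 in replicates 1, 2 and 3, a mean of 241 ± 24.3 (SD, n = 3). It was the highest peak of the locus in every library and stood at position 26, 8 and 24 of the thresholded peaks on the arms. Its core 16 bp from the centre is the one shown above as CGCCCAC, and the other lies 81 bp from the centre. S4, nearer to the start at +2785 bp, also held 2 cores, at −17 and +33 bp, yet its signals were 61.2, 42.5 and 64.0, a mean of 55.9 ± 11.7 (SD, n = 3). In each library S5 was higher than S4, and the ranges did not overlap.

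The third intron of sr-RA, which spans the second start, carried 13 of the 19 sites, and 7 of the 13 were found in all 3 libraries. The strongest was S10 at +16987 bp (3R 18107681 to 18107901), with signals of 205, 172 and 189, a mean of 189 ± 16.7 (SD, n = 3), and no exact core. S15 at +28116 bp followed with 136, 79.9 and 104 (107 ± 28.3), and S18 at +34444 bp with 70.5, 74.9 and 148 (97.9 ± 43.7). Both lacked an exact core, and S18 had the widest relative spread of the 11 sites, since its value in replicate 3 was far above the other values. S18 lies beyond the second start and so also in the first intron of sr-RB, 3186 bp from the start of that transcript.

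Means at S7 and S9, with a single core in the third intron, lay below S10, S15 and S18 and above S14 and S8. S7 at +12270 bp, whose core lies 13 bp from the centre, had signals of 75.5, 55.6 and 101, a mean of 77.3 ± 22.6 (SD, n = 3). S9 at +15579 bp, with its core at +50 bp, had 85.9, 50.1 and 82.3 (72.8 ± 19.7). The remaining sites of all 3 libraries were S14 at +26922 bp, with 65.2, 44.7 and 58.4 (56.1 ± 10.4), and S8 at +13933 bp, with 45.8, 41.9 and 47.5 (45.0 ± 2.85). S8 was the lowest and had summits spread over 73 bp, the widest span. The nearest core lay 104 bp from its centre, although 72 bp from the nearest summit of a single library.

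At the second start itself, Stripe peaks were weak. S17, 25 bp into the 5′ UTR of sr-RB, was past the threshold in replicate 1 (signal 54.5) and replicate 2 (41.2). In replicate 3 a ranked peak of signal 19.8 lay there with a global IDR of 0.788. The IDR, or irreproducible discovery rate, is estimated from how a peak ranks in 2 sets of reads of its library. Every peak past the threshold had a global IDR of 0.01 or less. At sr all ranked peaks at or below this value were past the threshold. In the whole lists of replicates 1, 2 and 3, 2857, 1760 and 3121 ranked peaks were at or below it, more than the thresholded lists held. S17 held no core. At the first start, S3 had a mean signal of 177, and the highest library at S17 (54.5) was below the lowest at S3 (156).

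**Figure D2:**
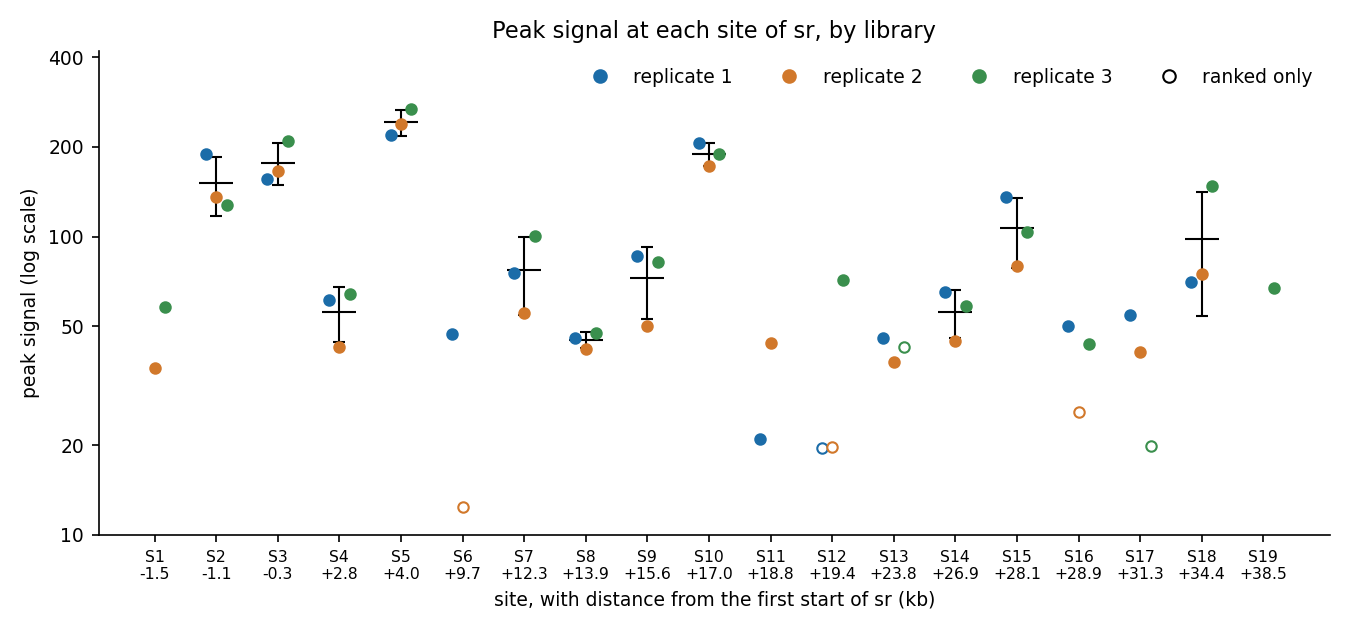
Peak signal (log scale) at each of the 19 sites, with the distance from the first start of sr in kb. Filled points are thresholded peaks of each library, open points peaks that were only ranked, and bars show the mean and SD of the 11 sites of all 3 libraries; S5 lies above all other sites in every library, while from S10 downward the ranges of neighbouring sites in the order overlap.

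The other 8 sites passed the threshold in only 1 or 2 libraries. S13 at +23808 bp missed it in replicate 3, where its signal of 42.6 had a global IDR of 0.0281, beside 45.6 and 38.1 past the threshold in replicates 1 and 2. S16 at +28910 bp had 50.1 and 43.5 past the threshold in replicates 1 and 3 and a ranked peak of 25.8 in replicate 2 (global IDR 0.549). S11 at +18828 bp passed in replicates 1 and 2, with 21.03 and 43.9, and had no ranked peak in replicate 3. These 3 sites held 1 core each. Of the sites of a single library, S12 at +19359 bp reached 71.5 in replicate 3, with ranked peaks of 19.5 and 19.8 in the others, and held a core. S6 at +9713 bp had 47.0 in replicate 1 and a ranked peak of 12.4 in replicate 2, with no core. Replicate 3 had no ranked peak within 100 bp of the centre of S6, although one of 29.0 (global IDR 0.0236) lay at +9845 bp. S19 at +38450 bp, in the intron before the last exon of sr-RA, had 67.1 in replicate 3, no ranked peak elsewhere and no core. The signal of a site in 1 library could thus exceed that of sites found in all 3, such as S8.

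In order of mean signal, S5 stood above S10 in 3 of 3 libraries, by 52.8 ± 34.8 (SD, n = 3), with ranges that did not overlap. All later neighbours in the order (S10, S3, S2, S15, S18, S7, S9, S14, S4, S8) had overlapping ranges. S2 was nonetheless above S15 in 3 of 3 libraries, by 44.3 ± 17.7 (SD, n = 3), S9 above S14 by 16.7 ± 9.92 and S4 above S8 by 10.9 ± 8.89. With 3 libraries an exact permutation test of a pair of sites cannot pass 0.05, so no test was made. Among the 1180 shared regions, ordered by mean signal, S5 was at position 16, S10 at 43, S3 at 60 and S2 at 103. The others ran from 261 (S15) down to 1133 (S8), so the locus held both strong and weak sites.

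Over the 11 sites, signals of replicate 2 had a Spearman correlation of 0.955 with those of replicate 1 and also with those of replicate 3, and replicate 1 had one of 0.855 with replicate 3. These sites lie in the same libraries and were called against the same control file, so the values are a description. The median ratio of signal was 1.36 for replicate 1 to replicate 2 and 0.964 for replicate 1 to replicate 3. The coefficient of variation over the libraries had a median of 20.9%, close to the 23.2% of all shared regions, and ran from 6.32% at S8 to 44.7% at S18.

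Summits agreed to within a median of 17 bp over the libraries, from 6 bp at S3 to 73 bp at S8. The median over all shared regions was 28 bp. Peaks of a library often have 1 fixed width, 270, 250 and 264 bp in replicates 1, 2 and 3, and 10, 10 and 6 of the thresholded peaks at sr had it. At S2, S5, S10 and S15 the peaks were narrower than that in every library, and their summits had a median span of 10.5 bp and a largest of 18 bp. The other 7 sites had a median span of 22 bp.

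**Figure D3:**
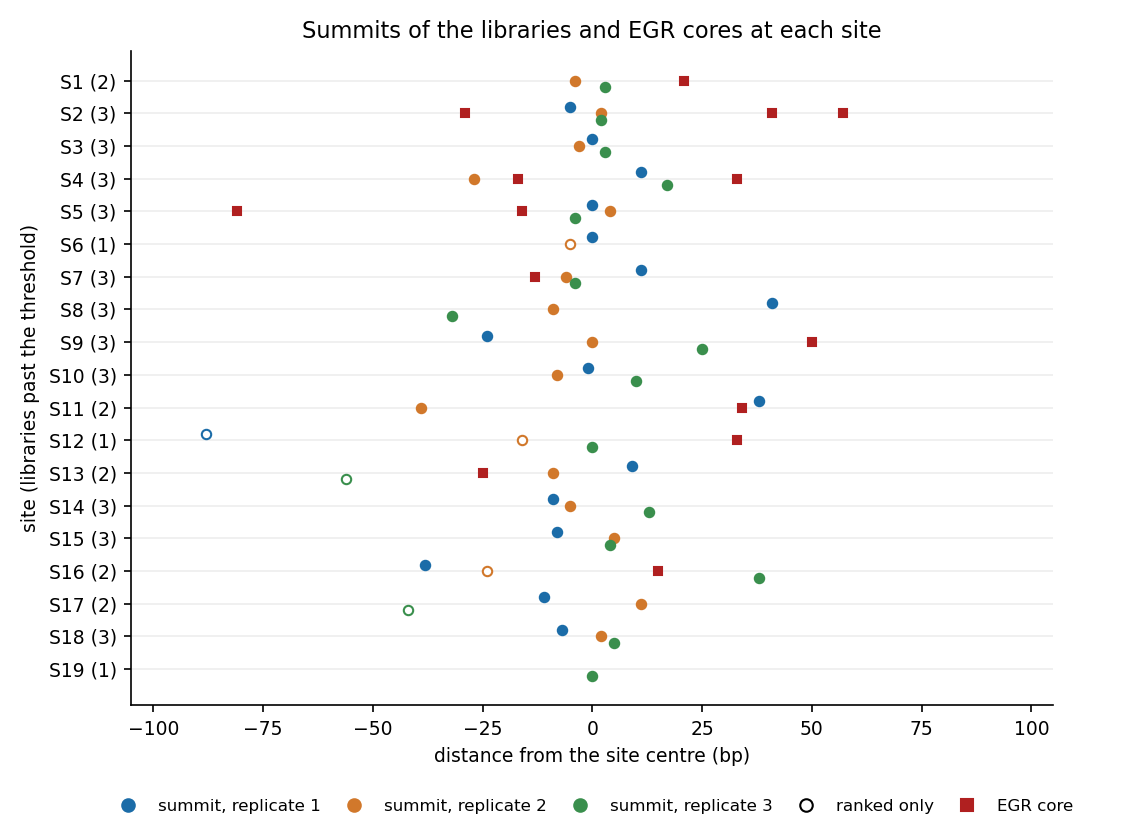
Summits of each library at the 19 sites, as distance in bp from the site centre, with EGR cores as red squares; open points are peaks that were only ranked, and the number in brackets counts the libraries past the threshold. Summits at S2, S3 and S5 lie within 8 bp of each other, while those at S8 spread over 73 bp.

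Each ranked list also gives the signal of a peak in the 2 sets of reads that the authors compared within a library. For S5 these were 114 and 109 in replicate 1, 99.9 and 136 in replicate 2, and 133 and 132 in replicate 3. At the 4 strongest sites the larger value was a median of 1.26 times the smaller (12 values), at most 1.72 times, and the summits of the sets lay a median of 12 bp apart. At the other 7 sites of all 3 libraries the ratio had a median of 1.35 (21 values) and the summits a median distance of 25 bp. The most uneven was S4 in replicate 3, with 46.4 and 15.3, a ratio of 3.02.

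Site density differed along the gene. From the first to the second start, 31258 bp, there were 13 sites, 8 of them in all 3 libraries, or 2.56 per 10 kb. The 13523 bp from the second start to the end of the gene held 3 sites, 1 of them in all 3 libraries (0.739 per 10 kb). The 20000 bp downstream of the gene held no thresholded peak of any library and no core, although they held 11, 3 and 14 ranked peaks. From S2 to S18, the sites of all 3 libraries spanned 35594 bp, with gaps of 884 to 9935 bp and a median of 1654.5 bp.

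Cores were no more frequent at the locus than elsewhere, but more of them had a peak. Sites of all 3 libraries were themselves denser there, 1.297 per 10 kb against 0.0881 on the arms. Whether cores had a peak more often than this density alone would give was not tested. The stretch held 29 cores, 3.42 per 10 kb, and the arms 54645, 4.08 per 10 kb. Within 100 bp of the centre of a site of all 3 libraries lay 9 of the 29, 31%, whereas over the arms the share was 1.55%. A thresholded summit of any library lay within 100 bp of 15 cores (51.7%), and of 3.69% of cores over the arms. Ranked summits of all 3 libraries lay near 15, where the share over the arms was 6.88%. Ranked summits of 1 or 2 libraries lay near 7 (24.1%, against 43.2% over the arms), and the other 7 had none (24.1% against 50%). The 3 cores in exons had no thresholded summit within 1 kb. Cores without any ranked peak included those at −2571 and −1706 bp, upstream of the cluster at the first start.

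Turned around, 5 of the 11 sites (45.5%) held an exact core, close to the 49.1% of all shared regions. The share over all windows of the same length on the arms was 6.90%. More than 1 core stood in 3 of the 11 sites (S2, S4 and S5), where 15.8% of all shared regions held as many. Of the 8 sites of fewer libraries, 5 held a core. Within the locus the core did not order the sites: those with a core ran from 55.9 (S4) to 241 (S5) in mean signal, and those without from 45.0 (S8) to 189 (S10). Among the 4 strongest, S5 and S2 held cores and S10 and S3 did not.

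The first 6 letters of the core alone, GTGGGC or GTGGGT, a search chosen after seeing the data, stood in 10 of the 11 sites, all but S18. They stood in 65.4% of all shared regions and in 16.8% of windows of that length on the arms. The 9-base EGR consensus with at most 1 mismatch was in 2 of the 11 (S4 and S5), against 38.4% of shared regions. GAGAG, the motif of GAGA factor, a chromatin protein found at many fly promoters, stood in 5 of the 11 (S2, S5, S8, S14 and S15), against 36.6% of shared regions and 21.5% of windows. The motif of Ci, the factor of Hedgehog signalling, with at most 1 mismatch, was in S2 only, against 10.4% of shared regions. Motifs of TCF, the factor of Wingless signalling, of Ets factors, which act in EGF receptor signalling, of AP-1 and of Zelda were in 0 of the 11. Those motifs were in 2.54%, 0.763%, 2.97% and 0.508% of shared regions, and finding none in 11 sites says only that these letters were not within 100 bp of the centres.

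Below the threshold, 4 further places had ranked summits of all 3 libraries within 100 bp, at least 1 of them with a global IDR of 0.2 or less, over 250 bp from any thresholded summit. All lay in the third intron of sr-RA, and 3 of the 4 held a core. Of all windows of the same length on the arms 6.90% held one. The share among such weak places over the arms was not counted, and binding at these 4 was not tested. W1, at +17447 bp, had signals of 36.4, 23.4 and 35.8 with global IDRs of 0.746, 0.769 and 0.0743, and a core 22 bp from its centre. Shown with its core in capitals, as an exact core under a peak that no single library passed, it reads as follows on the forward strand, at chr3R:18108195-18108261.
W1: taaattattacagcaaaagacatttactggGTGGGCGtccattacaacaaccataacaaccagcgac

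W2 at +23119 bp had 35.7, 19.3 and 7.94, with a global IDR of 0.0165 in replicate 1, the value nearest to the threshold, and no core. W3 at +12912 bp had 3.93, 24.5 and 29.4, with global IDRs of 0.119, 0.216 and 0.416, and its core lay at +51 bp. Only its lowest signal, in replicate 1, met the IDR limit of 0.2. W4 at +27408 bp had 23.4, 15.01 and 6.002, with a core at −31 bp and summits within 10 bp. In replicate 1 the signals of W1, W2 and W4 were above that of the lowest thresholded peak at the locus (21.03), the threshold being set on the IDR. In replicates 2 and 3 all 4 were below the lowest thresholded peaks (36.3 and 43.5). Such places came to 0.472 per 10 kb at the locus and 0.162 on the arms, and sites of all 3 libraries to 1.297 and 0.0881 per 10 kb.

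**Figure D4:**
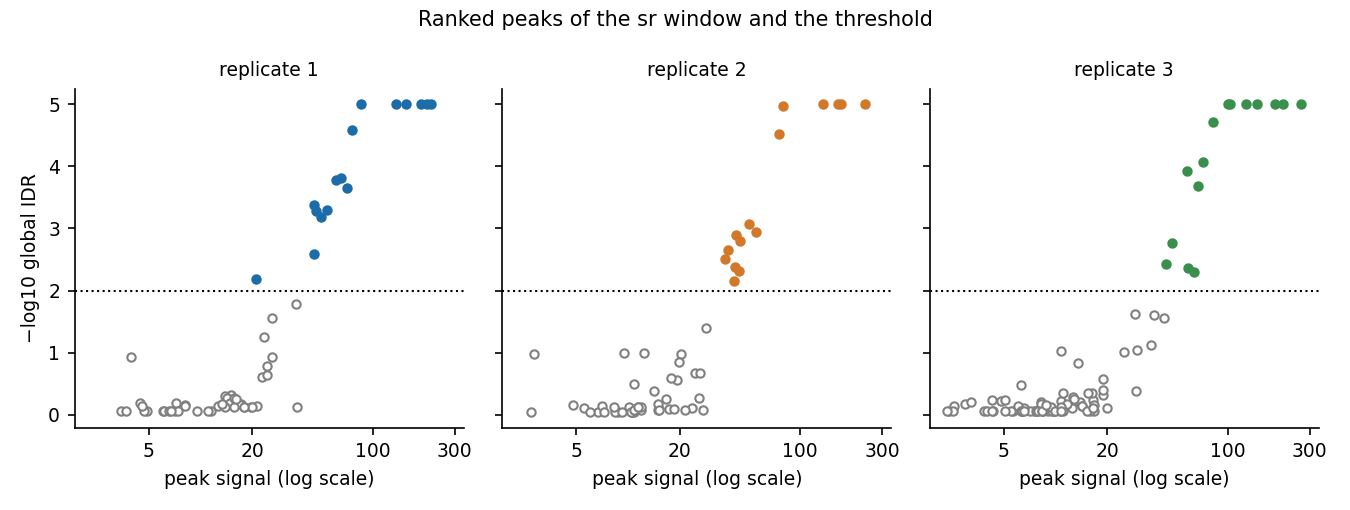
Every ranked peak at sr by signal (log scale) and −log10 of its global IDR, 1 panel per library; filled points are past the threshold, drawn as a dotted line at a global IDR of 0.01. The filled points number 16, 15 and 15 of 60, 59 and 89 peaks, and most open points lie at a global IDR over 0.2 (38, 38 and 66).

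Just beyond the threshold, ranked peaks with a global IDR over 0.01 and up to 0.05 numbered 2, 1 and 3 in replicates 1, 2 and 3, or 3.33%, 1.69% and 3.37% of the ranked peaks at sr, where the whole lists had 1.86%, 0.963% and 1.65%. Between 0.05 and 0.2 there were 4, 5 and 5. Above 0.2 there were 38, 38 and 66, or 63.3%, 64.4% and 74.2%, smaller shares than the 90.7%, 95% and 91.4% of the whole lists. The deposited −log10 values end at 5, and S2, S3, S5 and S10 were at that end in every library.

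The authors' 4 thresholded lists of all libraries together held 5040, 4044, 3249 and 3172 peaks, of which 19, 17, 16 and 16 lay in the stretch. All 11 sites of all 3 libraries were in every one of these lists. In the longest list their signals ran from 734 at S5, 550 at S10, 544 at S3 and 424 at S2 down to 129 at S8. Of the 8 other sites, 6 were in the longest list, and S13 (118) and S16 (112) were in all 4. S1 and S19 were in none. At W1 all 4 lists had a peak, of signal 73.1 (3R 18108180 to 18108291), although no single library passed the threshold there. A second peak of all 4 lists had a signal of 64.7 at +12752 bp (3R 18103407 to 18103702) and no core. Within 100 bp it had a ranked peak in replicate 1 alone, of signal 25.9 and global IDR 0.119. Just beyond that distance, at +12868 bp, replicate 3 had the ranked peak of 29.4 that is counted at W3.

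No thresholded summit lay in a neighbouring gene. The closest site to bard (FBgn0038566), upstream, was S1 at 6712 bp, and to CG14316 (FBgn0038567), downstream, S19 at 22867 bp. The transfer RNA genes tRNA:Gly-TCC-1-3 and tRNA:Gly-TCC-1-4 lie inside the third intron of sr, at 3R 18108637 to 18108708 and 18108993 to 18109064. The sites nearest to them were S10 at 847 bp and S11 at 567 bp. Within 250 bp of the first there was 1 ranked peak, in replicate 1, and within 250 bp of the second none.

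With shared regions counted inside a gene and in the 1000 bp before it, sr had 10, the most of 13945 protein-coding genes. S2, at −1150 bp, falls just outside this count. Of all protein-coding genes 1011, or 7.25%, had any shared region, and 849 of those had 1. Since long genes have more room, sr was also set beside the 796 genes of 0.5 to 2 times its length, of which 229 (28.8%) had a shared region. Their median was 0, and 30 had 3 or more. The most similar by number were chn, a zinc finger factor gene (8), Hr4, a nuclear receptor gene (7), the overlapping Glut4EF and CG46467 (6, the same regions) and sbb, a transcriptional regulator gene (6). The mean signals of its regions summed to 1119 in sr, 791 in chn, 528 in Glut4EF and CG46467, 478 in Hr4 and 440 in sbb.

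Per length the order changed. Among the 8 genes with 5 or more shared regions, chn had 2.71 per 10 kb of gene, lbk, which encodes a leucine-rich repeat protein, 2.58 and sr 2.23. Leaving out replicate 1, 2 or 3, sr had 10, 11 and 13 regions of the remaining libraries, and the next gene 9, 9 and 8. The count of sr was thus the highest whichever library was left out, and its lead ran from 1 to 5 regions.

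**Figure D5:**
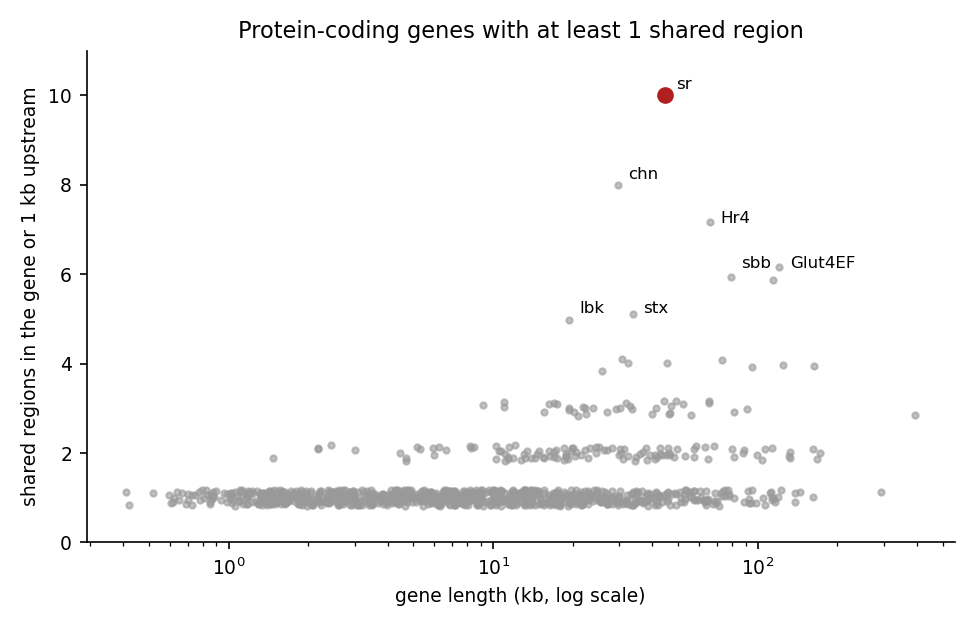
Number of shared regions inside a gene and in the 1000 bp before it, against gene length (kb, log scale), for the 1011 protein-coding genes with at least 1; points are moved slightly up or down so that they can be told apart. sr stands at 10 with a length of 44781 bp, above chn at 8 and Hr4 at 7.

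As the labels call the flies transgenic for the tagged gene, the density of all ranked peaks was set beside that of the surroundings. The stretch held 7.08, 6.96 and 10.5 ranked summits per 10 kb in replicates 1, 2 and 3. The 100 kb on either side of it held 8.70, 7.35 and 8.00, and the whole arm 6.48, 7.25 and 6.96. In replicates 1 and 2 the stretch was below its surroundings and in replicate 3 above them. Within the gene alone the density was 9.38, 10.7 and 12.1, higher than the surroundings in every library. Whether the tagged gene adds reads to these peaks was not tested, since the files hold no read coverage and no embryos without the tag.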

How the data were processed

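Per the labels, the 3 libraries are biological replicates of sonicated chromatin from whole embryos. The authors deposited a ranked and a thresholded peak list per library and 4 thresholded lists of all libraries together, on dm6. Peak signal is the authors' value with no stated normalization, and the deposited ranked lists give the −log10 of the global IDR. Aligner, peak caller and read depth were not given in the sources used here. Per the deposited text notes, 1 control file served all 3 libraries. Spreads of signal are SDs over the 3 libraries, which limits their precision. In the per-library lists 8 columns were not used.

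Thresholded summits widened by 100 bp were merged across libraries with Python 3.11.15, pandas 2.3.3, numpy 2.4.6 and SciPy 1.17.1, and drawn with matplotlib 3.10.9. The centre of a site is the mean of the best summits of its libraries. Gene models are from Ensembl release 115, and sequences from the RefSeq genome of Release 6, whose arm 3R has the length of dm6 (32079331 bp). The merging, the weak-site search and the motif search were tested on simulated data. With 1 group no test between groups was possible, so values are given as means and SDs over libraries beside those of all regions or genes. Named were all sites with a thresholded summit, up to 10 weak places, all genes in the stretch, the 5 genes with the most shared regions after sr and the 3 of like length with the next highest summed signal. The locus, the sites and the motif list were chosen with earlier results of these data known. lbk was named after its values were seen. Alternatives covered merging, threshold, window, motif and gene rules and each left-out library.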

Additional observations from a re-analysis of the deposited data

How the results depend on the processing

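No paired analysis was possible because there is no second group to pair the libraries with, and differences between sites were taken within each library. The 11 sites of all 3 libraries became 7 at a global IDR of 0.001 or less (S4, S7, S8 and S14 were lost), 17 in the conservative and 19 in the longest list of all libraries together. With 1 library left out they numbered 12 to 14, and the mean signal of S5 was 229 to 253 (241 with all libraries). The 4 weak places became 2 with summits within 50 bp, 1 at a global IDR of 0.05 or less and 2 at a doubled distance from thresholded summits; with 1 library left out they numbered 4 to 6. Sites with the EGR motif numbered 5 for the exact core, 2 for the 9-base consensus and 10 for the first 6 bases of the core, the last chosen after seeing the data. The rank of sr among genes by number of shared regions was 1, also with any 1 library left out. Per 10 kb of gene it was 3 among the 8 genes with 5 or more such regions. The other 14 alternative values, which cover the widening, the window, the scaling of signals, the summit definition and the motif windows among others, stayed within 1.5 times the count or within 1 SD. Read depth, antibody and the tagged copy could not be assessed from peak lists, and peaks that the authors' caller did not rank were not analysed here.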
